A study of Neurospora crassa with 22 samples.

Results

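Among the 10592 annotated features of Neurospora crassa counted here, 24 mRNAs had a GUL-1-GFP pull-down level at least 4 times that of the non-tagged wild-type pull-down when hyphae had received Nikkomycin Z, and less than 2 times it in the standard medium. They were selected on these measured levels. A feature was taken when each of the 3 GUL-1-GFP pull-downs with Nikkomycin Z lay above each of the 3 wild-type ones, the ratio of the means was 4 or more, and the GUL-1-GFP mean was 20 CPM or more. In addition, the same ratio had to be under 2 in the standard medium, where it was under 1 for 13 members and between 1 and 2 for the other 11. CPM is the count divided by the total of a library outside 5 rRNA features and multiplied by 1000000, and 1 CPM was added to both means before a ratio was taken. All 24 are protein-coding, and 2594 features reached the mean of 20 CPM. Because the pull-downs chose these mRNAs, the pull-down levels below are a description without a test. The inputs, the total RNA extracts taken before the pull-down, did not enter the choice, but they may come from the same cultures, so that a difference between cultures can appear in both and the input tests are not free of the choice.

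GUL-1 is an RNA-binding protein of the Ssd1 family, which in yeast holds mRNAs of cell wall proteins and influences their translation. Nikkomycin Z is an analogue of the substrate of chitin synthase and blocks the formation of chitin in the growing wall. In an RNA immunoprecipitation the tagged protein is collected on beads with the RNA attached to it, and a strain without the tag shows which RNA the beads keep on their own. A ratio between strains can therefore grow when the tagged strain yields more of an mRNA or when the control yields less.

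The tagged strain carries gul-1-sgfp at his-3 under the ccg-1 promoter, a promoter that is not that of gul-1, with the native gene replaced by hph. The control is labelled wildtype and carries no tag. Both were grown as hyphae in Vogel's minimal medium with sucrose, with 10 µM Nikkomycin Z for the last 1 h or with no drug. There were 3 pull-downs of each strain in each medium, 3 wild-type inputs in each medium, and 2 GUL-1-GFP inputs in each (replicates 2 and 3 with Nikkomycin Z, replicates 1 and 2 in the standard medium). The labels do not state whether replicates were separate cultures, and the methods speak of biological replicates without saying which libraries these were, so that the spread between libraries may be partly technical.

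Several standard libraries stood apart from their group. Outside the 5 rRNA features the pull-downs held between 282821 and 5270159 counts, and the inputs between 153 and 468189, the lowest being wild-type input replicate 3 of the standard medium. Its values of 0 are therefore uninformative. Over 4843 features without the members and gul-1, each wild-type pull-down with Nikkomycin Z had a mean Spearman correlation of 0.536 to 0.553 with the GUL-1-GFP pull-downs of that medium and 0.861 to 0.877 with the others of its own group. The wild-type standard pull-down replicate 2 went the other way, with 0.785 to the GUL-1-GFP and 0.509 to the wild-type pull-downs, and replicate 3 had 0.747 to the GUL-1-GFP and 0.642 to the wild-type ones. The GUL-1-GFP standard pull-down replicate 1 had 0.656 to the GUL-1-GFP and 0.707 to the wild-type pull-downs. The tagged gene gul-1 was higher in every GUL-1-GFP library than in every wild-type one, at 2046 to 9794 CPM against 0 to 1149.7 CPM. Among the wild-type pull-downs it was highest in those of the standard medium that stood apart, at 1149.7 CPM in replicate 2 and 732 CPM in replicate 3. Among the GUL-1-GFP pull-downs it was lowest in standard replicate 1, at 2614 CPM beside 8067 to 9794 CPM in the others. GUL-1-GFP standard input replicate 1 held 2046 CPM of gul-1, beside 5924 to 8288 CPM in the other GUL-1-GFP inputs. Wild-type standard input replicate 2 held 604 CPM, beside 0 to 151 CPM in the other wild-type inputs. The 4 conidiation markers con-6, con-8, con-10 and eas, genes of aerial growth and spore formation, summed to 9.77 to 22.01 CPM in GUL-1-GFP pull-downs with Nikkomycin Z, 1707 to 2525 CPM in wild-type pull-downs with Nikkomycin Z, 12.5 to 807 CPM in GUL-1-GFP standard pull-downs and 118 to 4777 CPM in wild-type standard pull-downs. con-6 and con-10 were at 0 in the GUL-1-GFP pull-downs other than standard replicate 1. These profile differences moved with the strain and the replicate, and their part in the results below was not tested.

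**Figure D1:**
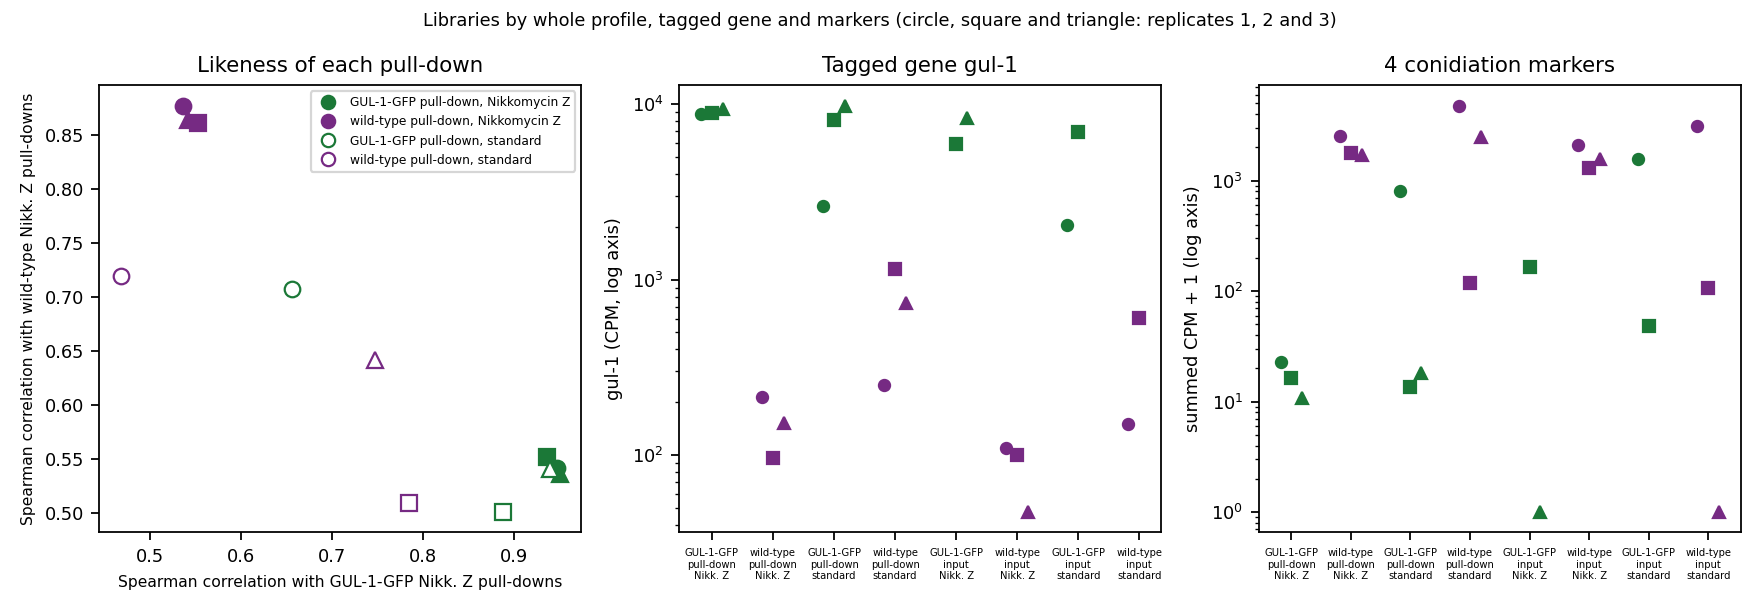
Each pull-down by its mean Spearman correlation with the GUL-1-GFP (x axis) and wild-type (y axis) pull-downs of Nikkomycin Z, beside gul-1 and the summed CPM of 4 conidiation markers in all 22 libraries on log axes (1 added to the marker sums; the gul-1 value of 0 in wild-type standard input replicate 3 is not drawn). The wild-type standard pull-down replicate 2 lies at 0.785 and 0.509, near the GUL-1-GFP libraries, and the GUL-1-GFP standard pull-down replicate 1 at 0.656 and 0.707.

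On the CPM of the rule, the shift that defined the 24 mRNAs lay in the wild-type pull-downs. Summed over the members, the GUL-1-GFP pull-downs held 6672, 6812 and 7209 CPM with Nikkomycin Z and 2323, 5978 and 7928 CPM in the standard medium. The wild-type pull-downs held 1284, 1299 and 1457 CPM with Nikkomycin Z and 2397, 9880.0 and 5849 CPM in the standard medium. All 3 wild-type values with Nikkomycin Z were below all 3 of the standard medium, whereas the GUL-1-GFP values of both media overlapped. The mean of the sums was 1.27 times the standard one in GUL-1-GFP and 0.223 times in the wild-type, a 4.49-fold lower level. In bulk samples of this kind a lower level can come from fewer cells of a type or from less RNA per cell. In a pull-down it can also come from less RNA kept by the beads. The pull-down levels cannot tell these apart, and the list is not complete.

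**Figure D2:**
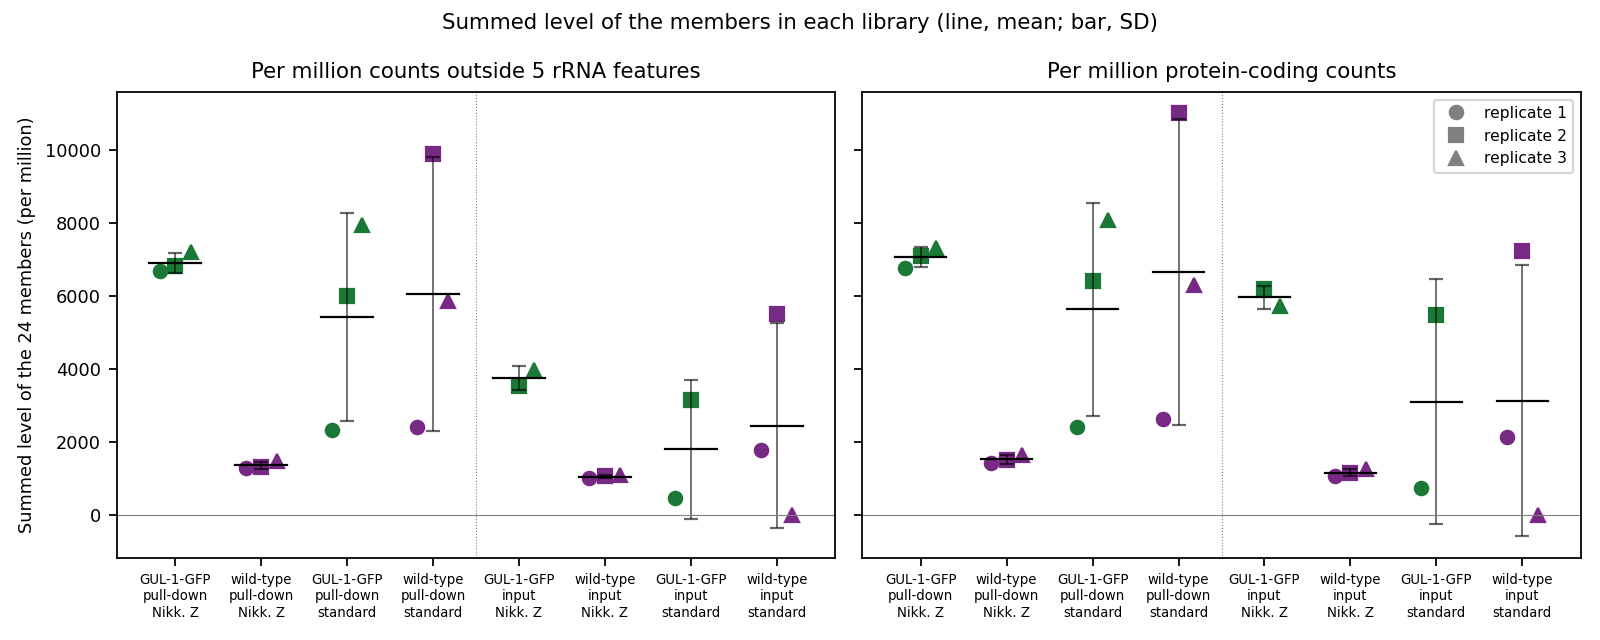
Summed level of the 24 members (y axis, CPM over the total outside 5 rRNA features on the left and over the protein-coding total on the right) in each library of the 8 groups on the x axis, with the mean as a line and the SD as a bar. With Nikkomycin Z every GUL-1-GFP library lies above every wild-type one in pull-downs and inputs, while in the standard medium replicate 1 is the lowest pull-down of both strains.

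The median log2 shift with Nikkomycin Z over the standard medium over the 24 members was 0.32 for GUL-1-GFP pull-downs and -2.41 for wild-type pull-downs. Over the other 2570 features of 20 CPM or more it was -0.26 in both strains. A shift of at most -1 in the wild-type with less than 1 in GUL-1-GFP was found for 23 members, and for 540 (21.0%) of the other features at that level. The rule itself sets the wild-type shift of each member more than 1 below its GUL-1-GFP shift. The shares of unselected features here and below are therefore not a like comparison. The cyclin mRNA NCU09085 was on the GUL-1-GFP side by this division, with log2 shifts of 1.03 for GUL-1-GFP and -0.99 for wild-type pull-downs, close to both limits. This count rested on single libraries, since the members with a GUL-1-GFP shift of 1 or more numbered 11 without GUL-1-GFP standard replicate 3, and 0 without standard replicate 1 or without replicate 3 with Nikkomycin Z. All 3 wild-type pull-downs with Nikkomycin Z were below all 3 standard ones for 14 members, against 23.1% of features at 20 CPM or more. All 3 GUL-1-GFP pull-downs with Nikkomycin Z were above all 3 standard ones for 3 members, NCU09085, NCU07112 and vad-1, against 2.24% of those features. The name of a set retained by GUL-1 with Nikkomycin Z therefore did not describe a rise on the GUL-1-GFP side, and the mRNAs are called here by the rule that chose them.

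**Figure D3:**
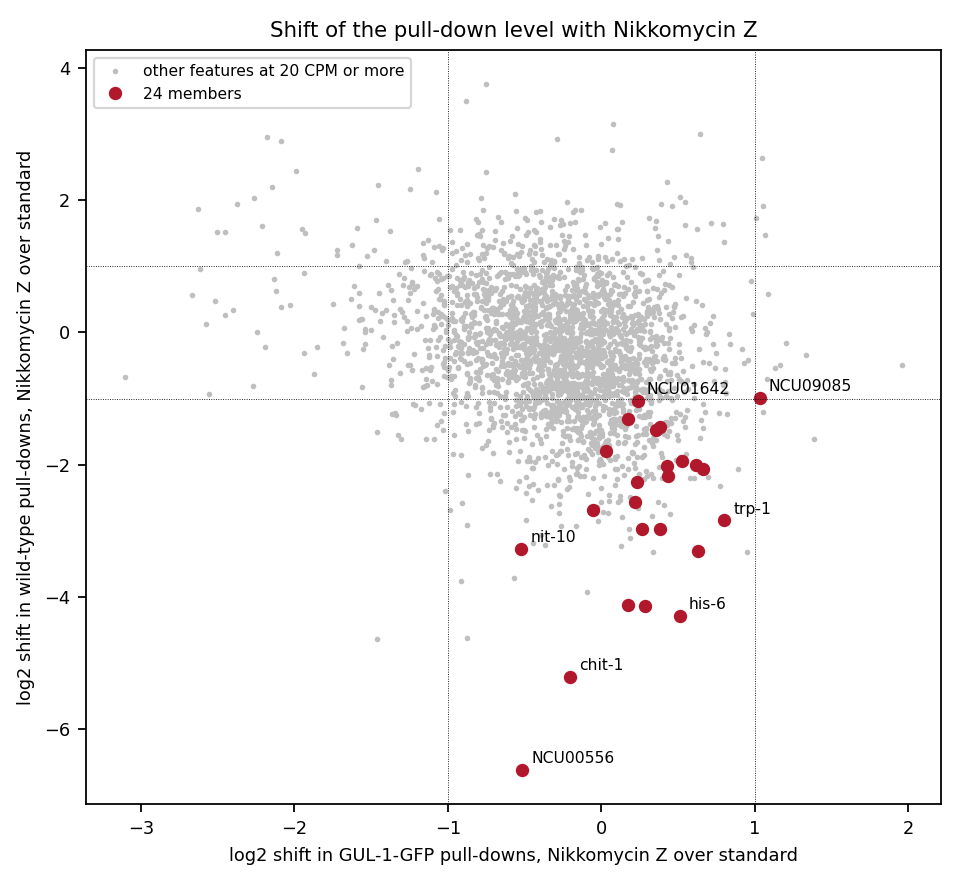
Log2 shift of the mean level with Nikkomycin Z over the standard medium in GUL-1-GFP pull-downs (x axis) and wild-type pull-downs (y axis) for the 24 members (red) and the other 2570 features of 20 CPM or more (grey), with dotted lines at -1 and 1. The members spread from -0.52 to 1.03 on the x axis and from -6.62 to -0.99 on the y axis. The value of -6.62 is that of NCU00556, which had 0 counts in all 3 wild-type pull-downs with Nikkomycin Z, so that its size depended on the 1 CPM added.

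The lower wild-type level rested largely on the standard libraries that stood apart. Wild-type standard pull-down replicate 1, whose profile was nearest to the other wild-type libraries, held 2397 CPM of the members, and replicates 2 and 3 held 9880.0 and 5849 CPM. With replicates 2 and 3 left out, an alternative chosen after seeing the data, the median wild-type shift was -0.72 in place of -2.41, and 9 members had a shift of at most -1. The ratio between strains in the standard medium then had a median of 2.75 over the members, against 0.829 with all libraries, and 7 of the 24 still met the rule. With GUL-1-GFP standard pull-down replicate 1 left out as well, 5 of the 24 met it. Within replicate numbers the median log2 difference of the members in the wild-type was -0.77 for replicate 1, -3.28 for replicate 2 and -2.13 for replicate 3. In GUL-1-GFP it was 2.03 for replicate 1, 0.37 for replicate 2 and -0.30 for replicate 3. Thus replicate 1 of the standard medium was the low library of both strains, with 21 of the 24 members lower than in replicate 2 in GUL-1-GFP pull-downs and 22 of the 24 in wild-type pull-downs.

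The rule also used the contrasts that follow, so that nothing is read from their counts. In the edgeR fit of all libraries, 24 members were called higher in GUL-1-GFP than wild-type pull-downs with Nikkomycin Z, where 7.11% of the 7114 features tested were. For the treatment, 0 members and 0% of features were called higher in GUL-1-GFP pull-downs with 1 member and 33 features at an unadjusted p under 0.05, and DESeq2 also called 0. In the wild-type pull-downs 1 member, NCU00556, was called lower, against 0.0141% of features, with 21 members and 443 features lower at an unadjusted p under 0.05. The members called lower there numbered 10 with no filter, 3 with the replicate number as a block and 2 with DESeq2. They numbered 5 without wild-type standard replicate 1, 1 without standard replicate 2 or 3 and 0 without any one wild-type library of Nikkomycin Z. That fit scaled the libraries by TMM, which sets the typical feature near no change. On it the median log2 strain difference with Nikkomycin Z was 4.36 over the members and -0.13 over all features, and with the library totals of the rule it was 2.49 over the members and -2.03 over all features.

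The strain difference with Nikkomycin Z was also present in the inputs, before any pull-down. The members summed to 3519 and 3974 CPM in the GUL-1-GFP inputs and to 996, 1051 and 1080.1 CPM in the wild-type inputs with Nikkomycin Z, so that the groups did not overlap. This is a 3.59-fold difference in the inputs beside 5.12-fold in the pull-downs. The GUL-1-GFP inputs held many counts on features that are not protein-coding, and protein-coding genes made up 57.0 and 69.4% of their totals, against 86.5 to 93.8% in the wild-type inputs. With the protein-coding total as the divisor, the members summed to 6175 and 5728 CPM in the GUL-1-GFP inputs and to 1062, 1142 and 1249 CPM in the wild-type inputs. The strain ratio on this scale was 5.17 in the inputs and 4.67 in the pull-downs, and the pull-down over input ratio was 1.19 for the GUL-1-GFP strain and 1.31 for the wild-type. On this scale the sum of the members differed between the strains by as much in total RNA as on the beads. The GUL-1-GFP input sums came from 259 and 257 counts. Over the other 2570 features of 20 CPM or more the median log2 strain ratio was -1.28 in pull-downs and 0.01 in inputs. Over the members it was 2.32 and 1.93. The members were chosen for a high strain ratio in the pull-downs and not in the inputs. Their larger distance from those features on the beads is therefore not read as a result.

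In the standard medium the inputs showed the same order of replicates as the pull-downs. GUL-1-GFP inputs held 441 CPM of the members in replicate 1 and 3131 CPM in replicate 2. Wild-type inputs held 1783 CPM in replicate 1 and 5508 CPM in replicate 2. The inputs with high sums, both GUL-1-GFP inputs with Nikkomycin Z and both standard replicates 2, had total counts of 6682673 to 12786879, and the others, apart from wild-type standard replicate 3, had 16240081 to 28010852. Outside the 5 rRNA features this order did not hold. The inputs with high sums held 64668 to 85272 counts there, GUL-1-GFP standard replicate 1 held 49844, and the remaining wild-type inputs held 212545 to 468189. The conidiation markers summed to 0 to 163 CPM in the 4 inputs with high sums, with 3 or 4 of the 4 markers at 0 in each, and to 1303 to 3096 CPM in the other 5. Whether depth or the state of the hyphae had a part in the level of the members was not tested.

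Tested gene by gene in the inputs, with the limit that these may share cultures with the pull-downs, 7 of the 24 members were higher in GUL-1-GFP inputs than in wild-type ones with Nikkomycin Z at an adjusted p under 0.05, and 0 were lower, with 8 higher and 0 lower at an unadjusted p under 0.05. DESeq2 called 5 members higher and 0 lower. Over all 7114 features 1.24% were called higher and 18.8% lower. The median log2FC was 1.04 over the members and -3.20 over all features, most of which had few counts in the GUL-1-GFP inputs. Both GUL-1-GFP inputs lay above all 3 wild-type inputs for 11 members, against 19.9% of features at 20 CPM or more. The calls depended on each library. There were 0 calls without GUL-1-GFP input replicate 2 or 3, 3 without wild-type input replicate 1 or 3 and 4 without wild-type input replicate 2, whereas the median log2FC of the members stayed between 1.03 and 1.40. The 7 mRNAs were aro-1, trp-1, NCU06360, his-6, NCU03575, NCU09492 and NCU07112, and 5 of them serve the supply or the charging of amino acids.

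Between media the inputs gave no member past the threshold. In wild-type inputs 0 members and 0.0703% of features were lower with Nikkomycin Z, the members having a median log2FC of -1.15 against 0.55 over all features, with 6 members lower and 1 higher at an unadjusted p under 0.05. DESeq2 called 1 member lower there. The smallest adjusted p belonged to aro-1, at 0.0591 by the edgeR quasi-likelihood test, Benjamini-Hochberg adjusted. In GUL-1-GFP inputs 0 members and 0.787% of features were higher, with 3 members at an unadjusted p under 0.05, 1 by DESeq2, and a median log2FC of 0.61 against 0.00 over all features. Without the standard libraries that stood apart the member medians were 0.14 in GUL-1-GFP inputs and 0.07 in wild-type inputs.

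**Figure D4:**
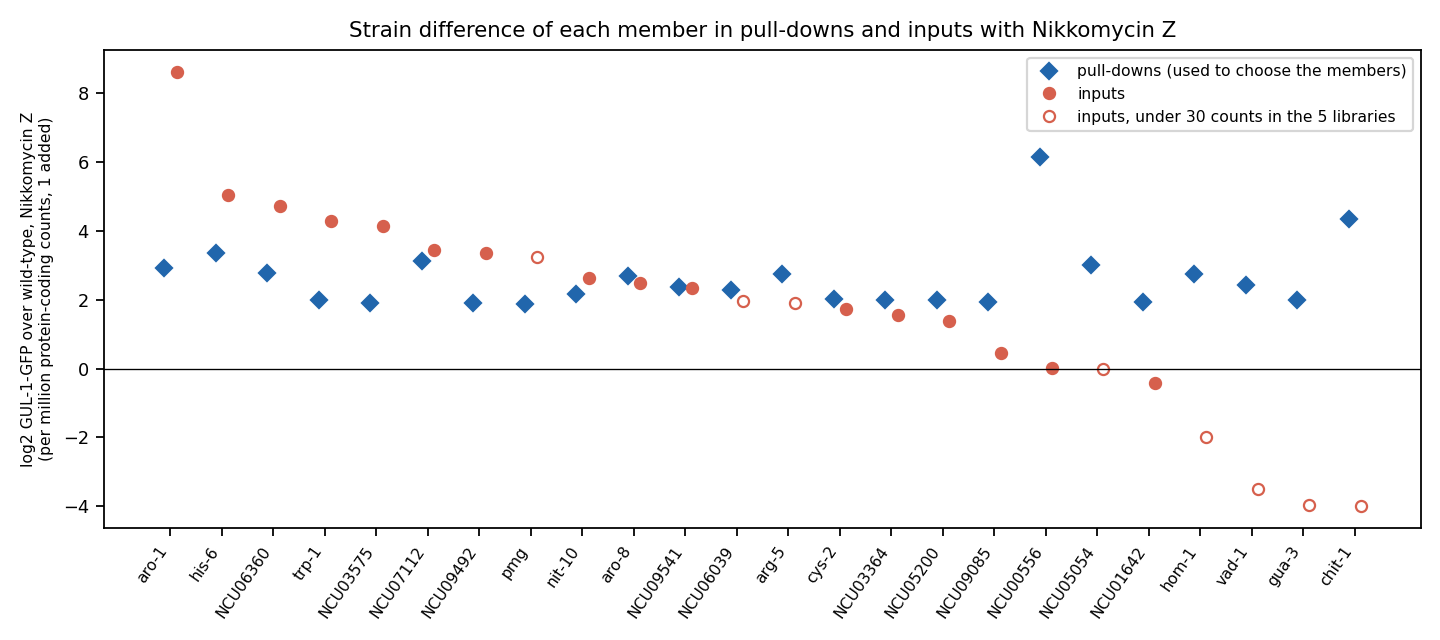
Log2 ratio of GUL-1-GFP over wild-type with Nikkomycin Z (y axis, from CPM over the protein-coding total with 1 added) for each of the 24 members on the x axis, in pull-downs (blue diamonds) and inputs (red circles, open where the 5 inputs held under 30 counts together). The pull-down ratios were chosen to be high, and 18 of the 24 input ratios are above 0, against 50.2% of the other 2570 features of 20 CPM or more (16 of the 24 against 39.4% with the library total of the rule).

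By function the 24 mRNAs fell into 2 groups of 12. The first comprised enzymes of amino acid, sulfur and purine synthesis, a tRNA synthetase, an amino acid permease and a nitrate transporter. Its summed level was 1989.5, 2481 and 2426 CPM in GUL-1-GFP pull-downs and 417, 308 and 497 CPM in wild-type pull-downs with Nikkomycin Z. In the standard medium it was 339, 2485 and 3121 CPM in GUL-1-GFP pull-downs and 573, 6315 and 3177 CPM in wild-type pull-downs. In 11 of these 12 the GUL-1-GFP mean of the standard medium was below the wild-type one, with a median ratio of 0.564, and the median wild-type shift was -2.98. In the other 12, among them the 3 most abundant members, the median ratio of the standard medium was 1.20 and the median wild-type shift -1.87. The grouping was made with the values in view.

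**Figure D5:**
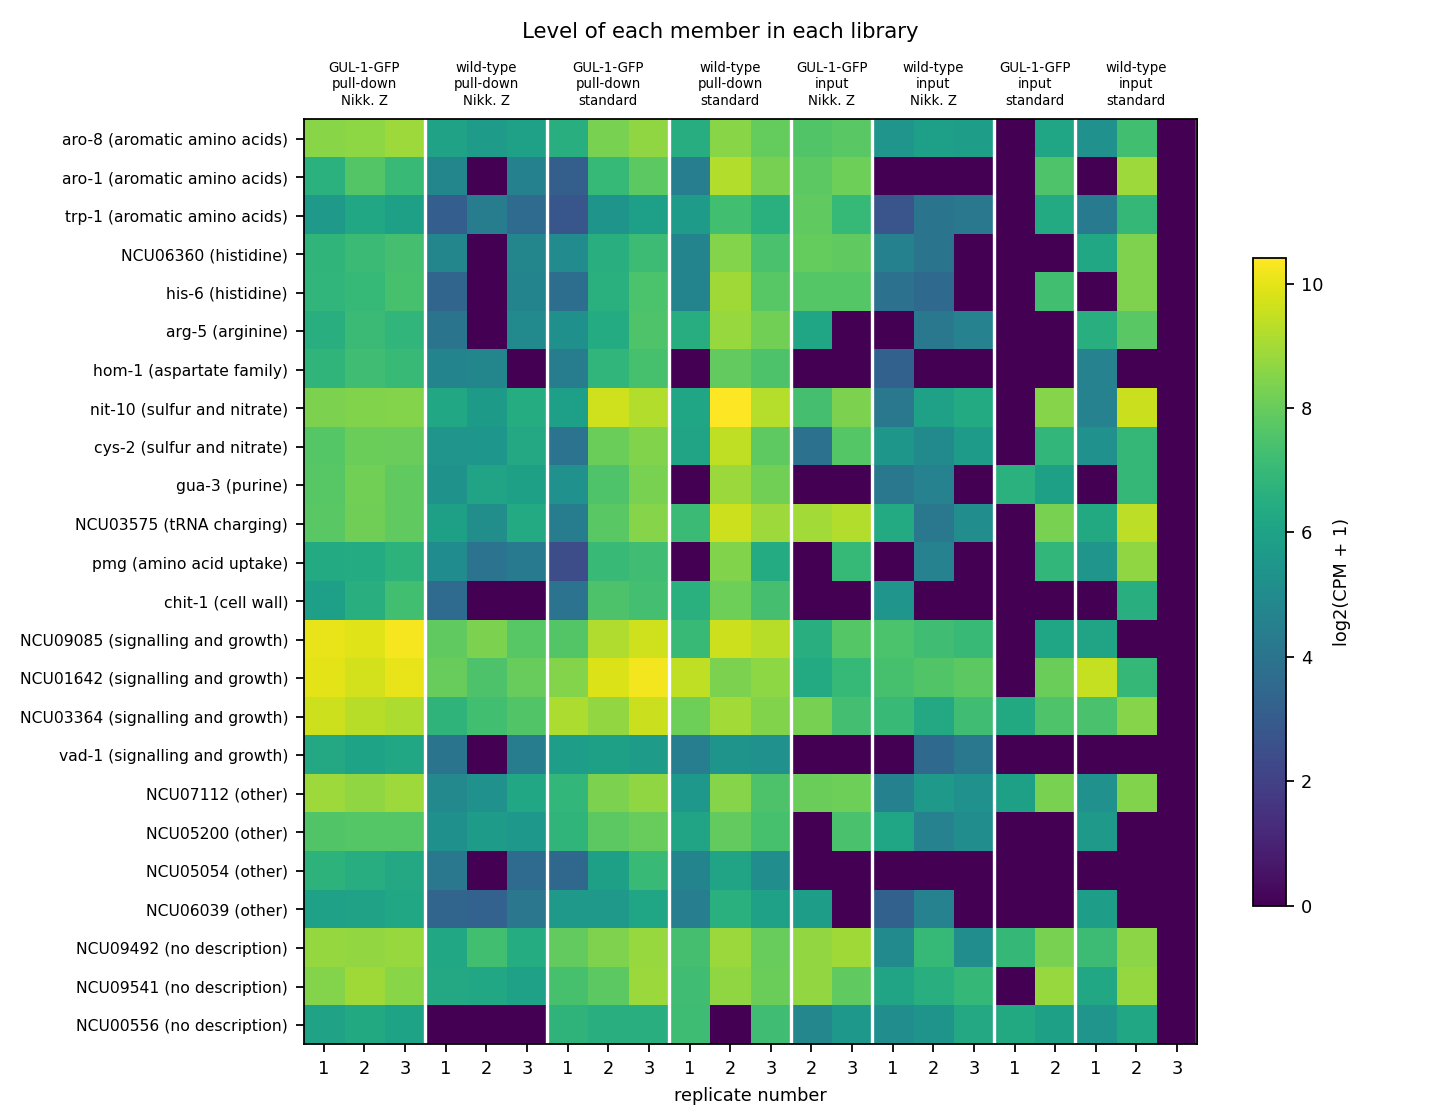
Level of each member (rows, grouped by role) in each library (columns, by group and replicate number) as log2 of CPM with 1 added. In the pull-downs, most rows of amino acid genes are darker in wild-type libraries with Nikkomycin Z and in replicate 1 of the standard medium than in the other libraries, and the inputs hold many values of 0.

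Of the aromatic amino acid genes, aro-8 encodes the aldolase that opens the shikimate pathway, aro-1 the pentafunctional AROM enzyme of its middle steps, and trp-1 a multifunctional enzyme of the tryptophan branch. aro-8 had 379, 398 and 475 CPM in GUL-1-GFP pull-downs and 62.9, 52.3 and 60.9 CPM in wild-type pull-downs with Nikkomycin Z. In the standard medium it had 90.2, 317 and 408 CPM in GUL-1-GFP pull-downs and 88.4, 379.8 and 249 CPM in wild-type pull-downs. Here the wild-type groups of both media did not overlap, and the low GUL-1-GFP value was that of standard replicate 1. aro-1 had 101, 195 and 131 CPM in GUL-1-GFP pull-downs and 26.7, 0 and 23.03 CPM in wild-type pull-downs with Nikkomycin Z. Its standard levels were 7.87, 125 and 218 CPM in GUL-1-GFP and 21.2, 595 and 312 CPM in wild-type pull-downs, with replicate 1 low in both strains. In the inputs with Nikkomycin Z aro-1 reached 217 and 278 CPM in GUL-1-GFP, from 16 and 18 counts, and 0 in all 3 wild-type inputs, which is at least 29.7-fold higher when 3 counts per wild-type library are taken as the floor (adjusted p = 0.00994 by the edgeR quasi-likelihood test, Benjamini-Hochberg adjusted). trp-1 had 48.01, 75.8 and 59.99 CPM in GUL-1-GFP pull-downs and 7.62, 20.3 and 11.5 CPM in wild-type pull-downs with Nikkomycin Z. In the standard medium it had 5.96, 40.5 and 57.8 CPM in GUL-1-GFP pull-downs and 53.04, 152 and 96.01 CPM in wild-type pull-downs. The trp-1 ratio of the standard medium was 0.352, the lowest of all members, and its inputs with Nikkomycin Z held 231 and 124 CPM in GUL-1-GFP and 5.63, 14.95 and 16.9 CPM in the wild-type. The trp-1 inputs differed with a log2FC of 3.50 ± 0.97 (SE, adjusted p = 0.0160 by the edgeR quasi-likelihood test, Benjamini-Hochberg adjusted).

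Of the histidine genes, his-6 encodes imidazole glycerol phosphate synthase of the middle of the pathway and NCU06360 is annotated as histidinol-phosphate aminotransferase, which acts near its end. his-6 had 116, 127 and 165 CPM in GUL-1-GFP pull-downs and 9.53, 0 and 24.7 CPM in wild-type pull-downs with Nikkomycin Z. In the standard medium his-6 had 12.4, 97.6 and 175 CPM in GUL-1-GFP pull-downs and 24.8, 489.5 and 208 CPM in wild-type pull-downs. The wild-type groups of both media did not overlap, although wild-type standard replicate 1 was barely above the highest value with Nikkomycin Z. NCU06360 had 111, 137 and 162 CPM in GUL-1-GFP pull-downs and 26.7, 0 and 26.3 CPM in wild-type pull-downs with Nikkomycin Z. In the standard medium NCU06360 had 31.3, 94.5 and 138 CPM in GUL-1-GFP pull-downs and 24.8, 359.5 and 168 CPM in wild-type pull-downs. In the inputs with Nikkomycin Z his-6 had 204 and 201 CPM in GUL-1-GFP and 14.1, 10.7 and 0 CPM in the wild-type (log2FC 4.19 ± 1.39, SE), and NCU06360 had 245 and 232 CPM in GUL-1-GFP and 22.5, 14.95 and 0 CPM in the wild-type (log2FC 3.86 ± 1.06, SE). Their adjusted p-values were 0.0354 for his-6 and 0.0161 for NCU06360 by the edgeR quasi-likelihood test, Benjamini-Hochberg adjusted. his-6 overlaps NCU07155 in the NC12 annotation, a gene with 131 CPM in the GUL-1-GFP pull-downs with Nikkomycin Z, and reads of overlapping genes may not be separable.

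Of the remaining metabolic enzymes, arg-5 encodes acetylornithine aminotransferase of arginine synthesis. It had 92.4, 137 and 114 CPM in GUL-1-GFP pull-downs and 15.2, 0 and 29.6 CPM in wild-type pull-downs with Nikkomycin Z, against 36.5, 83.04 and 184 CPM in GUL-1-GFP and 88.4, 449 and 291 CPM in wild-type pull-downs of the standard medium. Its wild-type levels of both media did not overlap, with a log2 shift of -4.12. hom-1, annotated as aspartate-semialdehyde dehydrogenase of the threonine and methionine route, had 112, 148 and 131 CPM in GUL-1-GFP pull-downs and 24.8, 26.1 and 0 CPM in wild-type pull-downs with Nikkomycin Z. In wild-type standard pull-downs hom-1 was at 0 in replicate 1 and at 239.7 and 182 CPM in replicates 2 and 3. cys-2, the assimilatory sulfite reductase that supplies sulfide for cysteine, had 202, 269 and 264 CPM in GUL-1-GFP pull-downs and 41.9, 43.6 and 77.3 CPM in wild-type pull-downs with Nikkomycin Z. gua-3, the GMP synthase of purine synthesis, had 205, 288 and 231 CPM in GUL-1-GFP pull-downs and 38.1, 66.8 and 59.2 CPM in wild-type pull-downs with Nikkomycin Z. In wild-type standard pull-downs cys-2 had 67.2, 685 and 224 CPM and gua-3 had 0, 463 and 290.4 CPM, so that for both replicate 1 lay among or below the values with Nikkomycin Z.

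NCU03575 is annotated as isoleucyl-tRNA synthetase, which loads isoleucine onto its tRNA. It had 211, 282 and 234 CPM in GUL-1-GFP pull-downs and 59.1, 34.9 and 80.6 CPM in wild-type pull-downs with Nikkomycin Z, and 20.3, 217 and 367 CPM in GUL-1-GFP and 134, 792 and 467 CPM in wild-type pull-downs of the standard medium. Its inputs with Nikkomycin Z held 503 and 588 CPM in GUL-1-GFP and 81.6, 17.1 and 33.9 CPM in the wild-type, a log2FC of 3.30 ± 1.03 (SE, adjusted p = 0.0270 by the edgeR quasi-likelihood test, Benjamini-Hochberg adjusted). With Nikkomycin Z the GUL-1-GFP input mean of this mRNA was above its GUL-1-GFP pull-down mean, at 545 against 243 CPM. The same held for aro-1, NCU06360, his-6, trp-1 and NCU09492, and not for the remaining members. pmg, a general amino acid permease, was the member nearest to the ratio of 4, with 80.8, 83.1 and 106 CPM in GUL-1-GFP pull-downs and 32.4, 14.5 and 18.1 CPM in wild-type pull-downs with Nikkomycin Z. nit-10, annotated as a nitrate transporter, had 331, 342 and 354 CPM in GUL-1-GFP pull-downs and 72.4, 49.4 and 85.5 CPM in wild-type pull-downs with Nikkomycin Z. In the standard medium it had 57.7, 818 and 599 CPM in GUL-1-GFP pull-downs and 70.7, 1361 and 605 CPM in wild-type pull-downs. Its mean was lower with Nikkomycin Z in both strains, with log2 shifts of -0.52 for GUL-1-GFP and -3.28 for wild-type pull-downs, and replicate 1 was the low standard library in each.

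nit-10, aro-1 and NCU06360 are listed in the study's supplement as transcripts with a near match to the element found in yeast mRNAs bound by Ssd1. The complete element is attcattcctt or agtcattcctt in DNA letters, and the sites are shown because the element is the only sequence feature listed for members in the sources used here. The capital marks the base that departs from the complete element, and the position within the transcript was not examined.
nit-10: attcattActt
aro-1: agtcattccCt
NCU06360: agtcattcAtt
Each differs at 1 of 11 bases, at position 8, 10 and 9 counted from the 5′ end in the order given. The supplement lists 454 transcript sites in 363 genes, complete or with 1 base different, and 0 members had a complete one. A listed site was found for 3 of 24 members (12.5%), for 165 (6.42%) of the other features of 20 CPM or more and for 363 (3.43%) of all features, which is a description of 3 mRNAs. All 3 were above all wild-type inputs in both GUL-1-GFP inputs with Nikkomycin Z, from 12 to 21 counts in each of the latter. The same held for 11 of the 24 members and for 19.9% of features of 20 CPM or more.

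The 3 most abundant members belong to signalling and growth. NCU09085, annotated as a cyclin, had 1059.7, 956 and 1216 CPM in GUL-1-GFP pull-downs and 234, 331 and 206 CPM in wild-type pull-downs with Nikkomycin Z. In the standard medium it had 194, 581 and 801 CPM in GUL-1-GFP pull-downs and 127, 786 and 623 CPM in wild-type pull-downs. Its GUL-1-GFP groups did not overlap, its wild-type groups did, and the inputs with Nikkomycin Z were close, at 95.1 and 201 CPM in GUL-1-GFP and 174, 149.5 and 129 CPM in the wild-type. NCU09085 overlaps NCU16318 in the NC12 annotation, a gene with 1248 CPM in the same GUL-1-GFP pull-downs, and reads of the pair may not be separable. NCU01642 is annotated with a Ras-GAP domain, found in proteins that switch off Ras. It had 1011, 831 and 1073 CPM in GUL-1-GFP pull-downs and 255, 180.1 and 253 CPM in wild-type pull-downs with Nikkomycin Z, against 359, 933 and 1183 CPM in GUL-1-GFP and 689, 327 and 401 CPM in wild-type pull-downs of the standard medium. Here wild-type standard replicate 1 was the highest of its group, unlike in the amino acid genes, and the wild-type groups did not overlap. NCU03364 has a DENN domain, a module of exchange factors for Rab GTPases, and had 787, 622 and 555 CPM in GUL-1-GFP pull-downs and 109, 151 and 189 CPM in wild-type pull-downs with Nikkomycin Z. Its inputs with Nikkomycin Z held 313 and 155 CPM in GUL-1-GFP and 127, 76.9 and 149 CPM in the wild-type, without overlap and with a log2FC of 0.70 ± 0.64 (SE) that did not pass the test. vad-1, a gene named for vegetative asexual development, had 77.8, 65.5 and 75.3 CPM in GUL-1-GFP pull-downs and 15.2, 0 and 19.7 CPM in wild-type pull-downs with Nikkomycin Z. In the standard medium vad-1 had 54.2, 60.2 and 52.4 CPM in GUL-1-GFP and 21.2, 40.6 and 37.3 CPM in wild-type pull-downs. The groups of both media were separate in each strain, in the wild-type barely, at 19.7 against 21.2 CPM.

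chit-1, a chitinase and the only member whose name places it in the cell wall, had the largest negative wild-type shift among members with a known function. It had 57.5, 94.2 and 153 CPM in GUL-1-GFP pull-downs and 11.4, 0 and 0 CPM in wild-type pull-downs with Nikkomycin Z. In the standard medium it had 14.6, 182 and 155 CPM in GUL-1-GFP pull-downs and 95.5, 276 and 159 CPM in wild-type pull-downs. Every wild-type standard value, replicate 1 included, was above every wild-type value with Nikkomycin Z, and the log2 shift was -5.21 with all libraries and -4.33 against replicate 1 alone. The wild-type pull-downs with Nikkomycin Z held 6, 0 and 0 counts of chit-1, so that the size of both shifts depended on the 1 CPM added. The inputs were too shallow to compare chit-1, with 0 counts in both GUL-1-GFP inputs and 15, 0 and 0 counts in the wild-type inputs with Nikkomycin Z.

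NCU00556, which has no description here, had the highest strain ratio. It had 62.6, 79.5 and 64.2 CPM in GUL-1-GFP pull-downs and 0 in all 3 wild-type pull-downs with Nikkomycin Z, which is at least 10.6-fold higher when 3 counts per wild-type library are taken as the floor. In the standard medium it had 109, 94.5 and 92.3 CPM in GUL-1-GFP pull-downs and 145, 0 and 148 CPM in wild-type pull-downs. The GUL-1-GFP values with Nikkomycin Z were all below the standard ones, and the wild-type standard replicate 2 was at 0 as well. The mRNA was not absent from the wild-type cultures, since their inputs with Nikkomycin Z held 12, 19 and 23 counts, or 33.8, 40.6 and 77.9 CPM, beside 27.2 and 46.4 CPM in the GUL-1-GFP inputs. NCU00556 lies 2 features from hom-1 in the order of genes of NC12, and it overlaps NCU16453, a gene with 23.5 CPM in the GUL-1-GFP pull-downs with Nikkomycin Z.

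Among the other members, NCU07112, with a pyridine nucleotide-disulphide oxidoreductase domain, had 473, 416 and 469.9 CPM in GUL-1-GFP pull-downs and 28.6, 37.8 and 72.4 CPM in wild-type pull-downs with Nikkomycin Z. NCU09492, without a description, had 438, 426 and 448 CPM in GUL-1-GFP pull-downs and 74.3, 154 and 85.5 CPM in wild-type pull-downs with Nikkomycin Z. Both were also higher in the GUL-1-GFP inputs, at 272 and 278 CPM against 22.5, 46.99 and 37.2 CPM in the wild-type for NCU07112 and at 421 and 479 CPM against 30.96, 124 and 33.9 CPM in the wild-type for NCU09492. The log2FC was 2.59 ± 0.87 (SE) for NCU07112 and 2.47 ± 0.70 (SE) for NCU09492, with adjusted p-values of 0.0365 and 0.0176 by the edgeR quasi-likelihood test, Benjamini-Hochberg adjusted. NCU09541, also without a description, had 358, 487 and 376 CPM in GUL-1-GFP pull-downs and 76.2, 75.5 and 60.9 CPM in wild-type pull-downs with Nikkomycin Z, and 421 and 232 CPM in GUL-1-GFP against 67.5, 91.8 and 122 CPM in wild-type inputs, which did not pass the test. The last 3 were NCU05200, annotated as the serine protease nma-111, NCU05054, a hypothetical protein, and NCU06039, a WD repeat protein. Their strain ratios with Nikkomycin Z were 4.38 for NCU05200, 8.603 for NCU05054 and 5.26 for NCU06039, beside ratios in the standard medium of 1.23, 1.58 and 0.934 in the same order. In all 3 the wild-type groups of both media did not overlap.

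By words of the product descriptions, 8 of the 19 members with a description were matched as metabolic enzymes. The classes of transporters, RNA processing, translation, cytoskeleton and trafficking, proteolysis and folding, and hypothetical proteins held 1 member each, NCU03575 being counted among enzymes, RNA processing and translation. No description matched secretion, cell wall, transcription and chromatin, kinases and phosphatases, or mitochondrial proteins. These matches fall short of the roles given above, because chit-1 and pmg have a symbol but no description, and those of aro-1 and trp-1 hold none of the words searched. Of the 54 genes that the paper names with an NCU number, 0 were members, where 0.227% of all features were, and a list of that size says nothing at that share. Of the 54, 6 passed the criteria for Nikkomycin Z, against 106 of all 10592 features, and the study picked some of these genes from the same libraries.

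Most amino acid genes outside the set had lower mean levels in wild-type pull-downs with Nikkomycin Z than in those of the standard medium, without passing the test. A list of 63 genes whose symbols name an amino acid pathway, chosen after the values were seen, held 45 of 20 CPM or more, of which 7 were members. The 38 that were not members had a median wild-type shift of -1.53 and a median GUL-1-GFP shift of 0.07, and 27 of them had a wild-type shift of at most -1, against 20.8% of the 2549 features of 20 CPM or more outside the list. All 3 wild-type pull-downs with Nikkomycin Z were below all 3 standard ones for 12 of the 38, against 583 of those 2549 features. In the contrast of wild-type pull-downs between media 0 of the 63 were called lower, with 25 at an unadjusted p under 0.05 and 2 by DESeq2. The summed level of the 38 was 2743, 3939 and 3268 CPM in GUL-1-GFP pull-downs and 5479, 4068 and 4926 CPM in wild-type pull-downs with Nikkomycin Z. In the standard medium it was 1573, 3769 and 4274 CPM in GUL-1-GFP pull-downs and 4798, 12719.7 and 11030.1 CPM in wild-type pull-downs. Wild-type standard replicate 1 thus lay within the wild-type values with Nikkomycin Z, and the lower sum rested on standard replicates 2 and 3, which stood apart. In the standard medium replicate 1 was the lowest pull-down of both strains, as for the members, but with Nikkomycin Z the median log2 strain ratio was 0.08. In the inputs with Nikkomycin Z, 5 of the 63 were higher and 5 lower in GUL-1-GFP at the adjusted threshold, where 1.24% of all features were higher and 18.8% lower, the higher ones being his-3, his-6, trp-1, aro-1 and pro-1. his-3 is the locus at which the tagged gene was placed.

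The members near a threshold show how narrow the choice was. pmg with a ratio of 4.01 and NCU03575 with 4.11 lay just inside the ratio of 4, and NCU06684 with 3.91 and leu-6 with 3.88 just outside. In the standard medium NCU01642 with 1.74 and vad-1 with 1.66 were nearest to the ratio of 2 from inside, and NCU04303 with 2.02 and NCU00719 with 2.16 from outside. The lowest GUL-1-GFP means were 61.3 CPM for trp-1 and 65.1 CPM for NCU06039, and the features that missed only the mean of 20 CPM by least were NCU06983 with 17.3 CPM and NCU00316 with 12.2 CPM. In all, 156 features missed the ratio of 4 alone, 82 the standard ratio alone, 33 the mean alone and 0 the separation of the libraries alone. The choice also depended on the library size. With the protein-coding total 17 features passed, 16 of them members, with the total of all counts 89 passed, 4 of them members, and with TMM 17 passed and 0 were members. Under TMM 8 of the 24 kept the criteria for Nikkomycin Z and 12 kept a standard ratio under 2.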

How the data were processed

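RNA was sequenced from 12 pull-downs and 10 inputs in 8 groups of strain, fraction and medium. The deposited values are counts per gene, and the authors gave them without normalization. According to the methods, reads were aligned with Tophat and tallied on exons with HTSeq, while the submitters' processing notes name CASAVA 1.8.2, HISAT2 2.1.0 and StringTie 1.3.3b. The genome build is not given in the sources used here, nor the strand setting of the counting. Columns were mapped to samples by name and 0 columns were left over. Symbols, gene classes and neighbours came from the NC12 annotation, which held 10590 of 10592 identifiers, and descriptions from the study's supplement. Both GUL-1-GFP standard inputs have titles that name a pull-down, and the fraction label was used.

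CPM was taken over the library total without NCU15719, NCU17319, NCU17318, NCU16302 and NCU16301. Shifts are log2 of the ratio of group means with 1 CPM added. A library with no count could have shown an mRNA from 3 counts, which covers counting error only. Counts were normalized by TMM, filtered by filterByExpr (minimum count 10), and tested in one model of 8 groups with edgeR 4.0.16 in R 4.3.3, by its quasi-likelihood test, with p-values adjusted after Benjamini and Hochberg over 7114 features. The edgeR fit was run on simulated counts for GUL-1-GFP over wild-type inputs with Nikkomycin Z only. Of 200 genes changed by a log2FC of 3, 129 (64.5%) were recovered, with 6 false calls. All groups were drawn from a common mean profile with a fixed spread, unlike the real groups, so the result does not carry over to these data. The members and lists were chosen with earlier results of these data known. Named members were the 12 most abundant, those with the 6 largest shifts on either side, those with a listed motif or an input call, and those nearest each threshold; hom-1 and NCU05054 fall outside this and were named to account for all 24. The product-name classes and the genes with an NCU number in the paper were counted without a test. The pattern of the cytoskeleton and trafficking class was narrowed in part to whole words after its matches were seen. Alternatives were DESeq2 1.42.0, the library total of the rule, no filter, the replicate number as a block, other library sizes and pseudocounts, medians in place of means, each library left out, and, chosen after seeing the data, the standard libraries that stood apart left out (wild-type pull-down replicates 2 and 3, GUL-1-GFP pull-down replicate 1, wild-type input replicates 2 and 3, GUL-1-GFP input replicate 1). Scripts used pandas 2.3.3, numpy 2.4.6 and matplotlib 3.10.9.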

Additional observations from a re-analysis of the deposited data

Results flagged for a closer look

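For vad-1, every GUL-1-GFP pull-down with Nikkomycin Z lay above every standard one while every wild-type pull-down with Nikkomycin Z lay below every standard one, the only member of the 24 for which the strains moved apart in this way. The wild-type groups were barely separate, at 19.7 CPM from 12 counts in replicate 3 with Nikkomycin Z and 21.2 CPM from 6 counts in standard replicate 1. The log2 shift was 0.38 for GUL-1-GFP and -1.43 for the wild-type, a difference of 1.81. In the model of all libraries the interaction of strain and medium for vad-1 had a log2FC of 2.25 ± 1.03 (SE) and did not pass the threshold (adjusted p = 0.458 by the edgeR quasi-likelihood test, Benjamini-Hochberg adjusted). Of the 24 members 0 passed it, where 0% of features were higher, and 22 had an unadjusted p under 0.05. This count was not stable, with 8 members called with no filter, 4 with the replicate number as a block, 1 without the standard libraries that stood apart, 0 with DESeq2 and 0 to 3 with a library left out, the 3 being those without wild-type standard pull-down replicate 1. These contrasts also chose the members, so that the difference is a description.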

How the results depend on the processing

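In place of 24, the rule chose 21 to 34 features when a pull-down was left out, 89 with the total of all counts as library size, 8 without both wild-type standard pull-downs that stood apart and 9 without all standard pull-downs that stood apart. The median GUL-1-GFP shift of 0.32 lay between -0.06 and 0.93 with a library left out, being negative whenever GUL-1-GFP standard replicate 1 was left out. The median wild-type shift of -2.41 lay between -2.90 and -1.52 with a library left out and was -0.72 without the wild-type standard pull-downs that stood apart. Both kept their direction with the other library sizes, pseudocounts, medians and the replicate block, but the balance between the strains changed with some of the library sizes. With TMM the median shift was 0.69 in GUL-1-GFP and -1.37 in wild-type pull-downs. In the same order it was 0.71 and -1.79 with the total of all counts and 0.30 and -2.39 with the protein-coding total. Members called higher in GUL-1-GFP than wild-type inputs with Nikkomycin Z numbered 7, and 0 to 4 with a library left out.

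Counts over all features moved more. For GUL-1-GFP over wild-type inputs with Nikkomycin Z the 1425 calls became 2456 with DESeq2 and 86 to 1167 with a library left out. For wild-type inputs between media the 71 calls became 156 with DESeq2, 153 with no filter, 22 with the library total of the rule, 236 without the libraries that stood apart and 0 to 829 with a library left out. For GUL-1-GFP inputs between media the 110 calls became 226 with DESeq2, 199 without the libraries that stood apart and 10 to 208 with a library left out. For wild-type pull-downs between media the 3 calls became 67 with DESeq2, 76 with no filter, 142 without the libraries that stood apart and 1 to 46 with a library left out. For GUL-1-GFP pull-downs between media 0 features were called by edgeR, with 301 at an unadjusted p under 0.05, and 0 by DESeq2 or with a library left out. For GUL-1-GFP over wild-type pull-downs with Nikkomycin Z the 884 calls became 3736 with the library total of the rule, 2380 without the libraries that stood apart and 385 to 476 with a library left out. For the difference of the strain contrast between media the 2 calls became 5 with DESeq2, 69 with no filter, 5 with the library total of the rule, 18 without the libraries that stood apart and 0 to 40 with a library left out. The cause of these changes was not tested.

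Deviations from the group mean were correlated between same-numbered libraries, pull-down with pull-down and input with input, at -0.073 to 0.525. Pull-downs were not compared with inputs in this way. The highest values, 0.525 for replicate 1 and 0.417 for replicate 2, were between GUL-1-GFP and wild-type standard pull-downs, where replicate 3 had 0.01. In no comparison was every correlation over 0.1, and the main fit did not pair the libraries. What replicates 1 and 2 shared in the standard medium was not tested. With the replicate number as a block the counts were 155 in wild-type inputs and 51 in GUL-1-GFP inputs between media, 32 in wild-type pull-downs between media and 41 for the difference of the strain contrast, and 6 members were higher in GUL-1-GFP than wild-type inputs. The inputs had few counts, and all 24 members had under 40 in each GUL-1-GFP input, which limits what could be detected.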

Other observations

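The criteria for Nikkomycin Z alone were passed by 106 features, of which 24 had a standard ratio under 2 with all libraries. Without both wild-type standard pull-downs that stood apart, 8 of the features passing them did, 7 of them members: NCU01642, NCU09541, NCU03575, arg-5, chit-1, NCU00556 and trp-1. Against wild-type standard pull-down replicate 1 alone, trp-1 had a standard ratio of 0.661 and NCU00556 of 0.682, while gua-3, hom-1 and pmg were at 0 counts in that library.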
